A study of Drosophila melanogaster with 3 samples.

Results

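Translation factors are the proteins that start, extend and end protein synthesis on the ribosome, and their genes are described here as targets of the Drosophila protein CG12942 in embryos. They were taken by name: the protein-coding genes of the Ensembl annotation of assembly BDGP6 (dm6) whose symbol begins with eIF (initiation), eEF (elongation) or eRF (release). The rule gave 54 genes out of 13945 coding for protein on the 6 arms analysed (2L, 2R, 3L, 3R, 4 and X), with 44 initiation, 8 elongation and 2 release factor genes. The data are chromatin immunoprecipitation with sequencing (ChIP-seq) from whole embryos, sexes mixed, aged 0 to 24 hours. All of them came from 1 transgenic line, made to carry CG12942 with green fluorescent protein (eGFP) at its C terminus, and an anti-GFP antibody pulled down the fusion protein. There were 3 biological replicates of this single condition, each from its own biosample. Peaks in whole embryos cannot be assigned to a cell type. No sample of another condition was analysed here, so no test between conditions was possible and the counts below are descriptions, read beside the share of all protein-coding genes counted the same way.

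During initiation, eIF2 brings the initiator tRNA to the small ribosomal subunit, eIF2B recharges eIF2 with GTP, and eIF3, the largest of these complexes, holds the small subunit while eIF4E, eIF4G and eIF4A recruit the mRNA by its cap. The factors eIF1, eIF1A and eIF5 act in the choice of the start codon, and eIF5B in the joining of the large subunit. During elongation, eEF1 delivers aminoacyl-tRNAs and eEF2 moves the ribosome along the mRNA, and at a stop codon eRF1 and eRF3 release the chain. Early embryos depend on this machinery to translate maternal mRNAs before their own genome is active.

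A gene was called bound when the summit (highest point) of a peak lay within 500 bp of 1 of its transcription start sites (TSSs). The peaks were the 3844 of the authors' optimal set, named for a procedure (IDR) that compares peak ranks between replicates. Its weakest peak signal, 78.9, equalled that at rank 3844 of the list called on the pooled replicates. At every bound translation factor gene the peak had the same rank in both lists. A bound gene could therefore rank unalike in the replicates, as eIF3d1 did (2905, 12704 and 4022 in replicates 1, 2 and 3). With the optimal set, 17 of the 54 translation factor genes were bound (31.5%), beside 19.2% of all protein-coding genes. Among the strongest 3844 peaks of each replicate taken alone, replicate 1 gave 19 of the 54 genes (35.2%, beside 18.6% of all genes), replicate 2 gave 13 (24.1%, beside 19.2%) and replicate 3 gave 15 (27.8%, beside 18.8%). The mean was 29.0% ± 5.66 for translation factors and 18.9% ± 0.288 for all genes (SD, n = 3). These SDs cannot be compared, since 1 gene moves a share of 54 genes far more than a share of 13945. Every replicate placed the translation factor share above the share of all genes. The differences were not tested, since the 54 genes were chosen with earlier results of these data known.

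The sequence at the summits differed widely from gene to gene, and 7 stretches are shown. They cover initiation, elongation and release and include the summits richest in A and T, at eRF3 and eIF4EHP. Each is the part of the 101 bases centred on an optimal summit that lies outside annotated exons, read 5′ to 3′ on the strand of the gene from the RefSeq dm6 genome. Capitals mark matches on either strand to the DRE (TATCGATA, the site of the factor DREF), the E-box (CACGTG) or the TATA box (TATAAA).
eIF4EHP: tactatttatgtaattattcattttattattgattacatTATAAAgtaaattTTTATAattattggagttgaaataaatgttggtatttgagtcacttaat
eRF3: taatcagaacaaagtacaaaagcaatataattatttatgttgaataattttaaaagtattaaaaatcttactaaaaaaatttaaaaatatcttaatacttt
eRF1: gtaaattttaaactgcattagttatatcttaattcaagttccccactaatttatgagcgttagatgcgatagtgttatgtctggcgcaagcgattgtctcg
eIF1: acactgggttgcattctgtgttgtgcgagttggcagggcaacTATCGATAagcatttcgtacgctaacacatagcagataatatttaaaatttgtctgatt
eEF1gamma: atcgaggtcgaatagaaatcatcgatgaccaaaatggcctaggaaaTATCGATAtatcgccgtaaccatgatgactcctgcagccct
eEF2: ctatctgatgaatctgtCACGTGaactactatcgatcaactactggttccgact
eIF4G2: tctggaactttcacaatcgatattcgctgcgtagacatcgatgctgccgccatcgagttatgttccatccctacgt
The stretch at eIF4EHP (chr3R:24109149-24109249, minus strand) and that at eRF3 (chr2L:12434291-12434391, plus strand) consisted largely of A and T, with 16.8% and 13.9% GC. The TATAAA matches at eIF4EHP lay within this AT-rich stretch, whose summit is 239 bp upstream of the eIF4EHP TSS. The stretch at eRF1 (chr3L:20348207-20348307, plus strand) had 36.6% GC and none of the 3 motifs. At eIF1 (chr3L:3223003-3223103, plus strand) and eEF1gamma (chr3R:29220085-29220171, plus strand) a DRE lay at or next to the summit base, which is base 51 of each line. The stretch at eEF2 (chr2L:21682165-21682218, minus strand) held an E-box 28 to 33 bases upstream of the summit, and that at eIF4G2 (chr3R:23819238-23819313, minus strand) held none of the 3 motifs.

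The strongest peaks at initiation factor genes were at eIF6 and eIF4EHP. The protein eIF6 keeps the large ribosomal subunit from joining the small one too early. Its peak (2R, 23850237 to 23850560) had a summit 94 bp upstream of the TSS, inside an intron of the neighbouring gene ytr and an exon of the antisense RNA gene CR45928. The authors' peak signal there was 269, 293 and 272 in replicates 1, 2 and 3, and these peaks ranked 30, 19 and 31 in their lists of 30000, 30000 and 27870 peaks. The signal of a peak is the value the authors' peak caller gave it, and its scale may differ between lists, so only ranks are compared between lists.

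The gene eIF4EHP encodes a protein that binds the mRNA cap like eIF4E but does not recruit eIF4G, and it represses translation in the embryo. The signal of its peak (3R, 24108956 to 24109395) was 199, 196 and 256 in replicates 1, 2 and 3, with ranks of 75, 49 and 43. The summit lay 239 bp upstream of the eIF4EHP TSS and 137 bp from the TSS of CG18428, which is transcribed in the opposite direction and is nearer. When each summit was counted only for the gene with the nearest TSS, eIF4EHP was therefore not bound. A further 2 optimal summits lay in introns of eIF4EHP, 2534 and 9760 bp downstream of its TSS, with signals of 99.3 and 176, and for both the nearest TSS belonged to Syx1A.

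None of the other eIF4E genes was bound. With eIF4EHP, 1 of the 7 genes of the family was bound (14.3%, near the 19.2% of all protein-coding genes). The gene of the general cap-binding protein, eIF4E1, had a peak within 500 bp of a TSS in replicates 1 and 3 only, at ranks 11015 and 15244 and signals of 16.3 and 11.1. The paralogues eIF4E3, eIF4E4 and eIF4E6 had no such peak in any replicate list. The paralogue eIF4E5 had a peak in replicate 3 alone (rank 27134), and eIF4E7 had peaks in replicates 1 and 2 at ranks 28805 and 28791, near the end of both lists. The 7 genes of the eIF4E family thus ran from the top 75 peaks in all replicates, at eIF4EHP, to no peak in any of them.

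The rest of the eIF4 group lay close to or below the limit of the optimal set. Of the scaffold genes, eIF4G2, whose product is a testis form, was bound with ranks of 2523, 2056 and 3951 in replicates 1, 2 and 3. Its summit lay 26 bp upstream of TSSs annotated at the same position for eIF4G2 and CG33111. The gene of the main scaffold, eIF4G1, the 1 member on chromosome 4, had peaks in all replicates at ranks 5182, 9770 and 4215 and was not bound. The helicase gene eIF4A was within the top 3844 peaks of replicate 1 (rank 3208) and at ranks 9685 and 5859 in replicates 2 and 3. The gene of its cofactor eIF4B had ranks of 10333, 16337 and 5710, and eIF4H1 and eIF4H2 had no peak in any list. In all, 2 of 13 eIF4 group genes were bound (15.4%), near the 19.2% of all protein-coding genes, and the replicates gave 3, 2 and 1 of the 13 (23.1%, 15.4% and 7.69%, beside 18.6%, 19.2% and 18.8%). The count was 1 in the sets built without replicate 1 and without replicate 2.

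**Figure D1:**
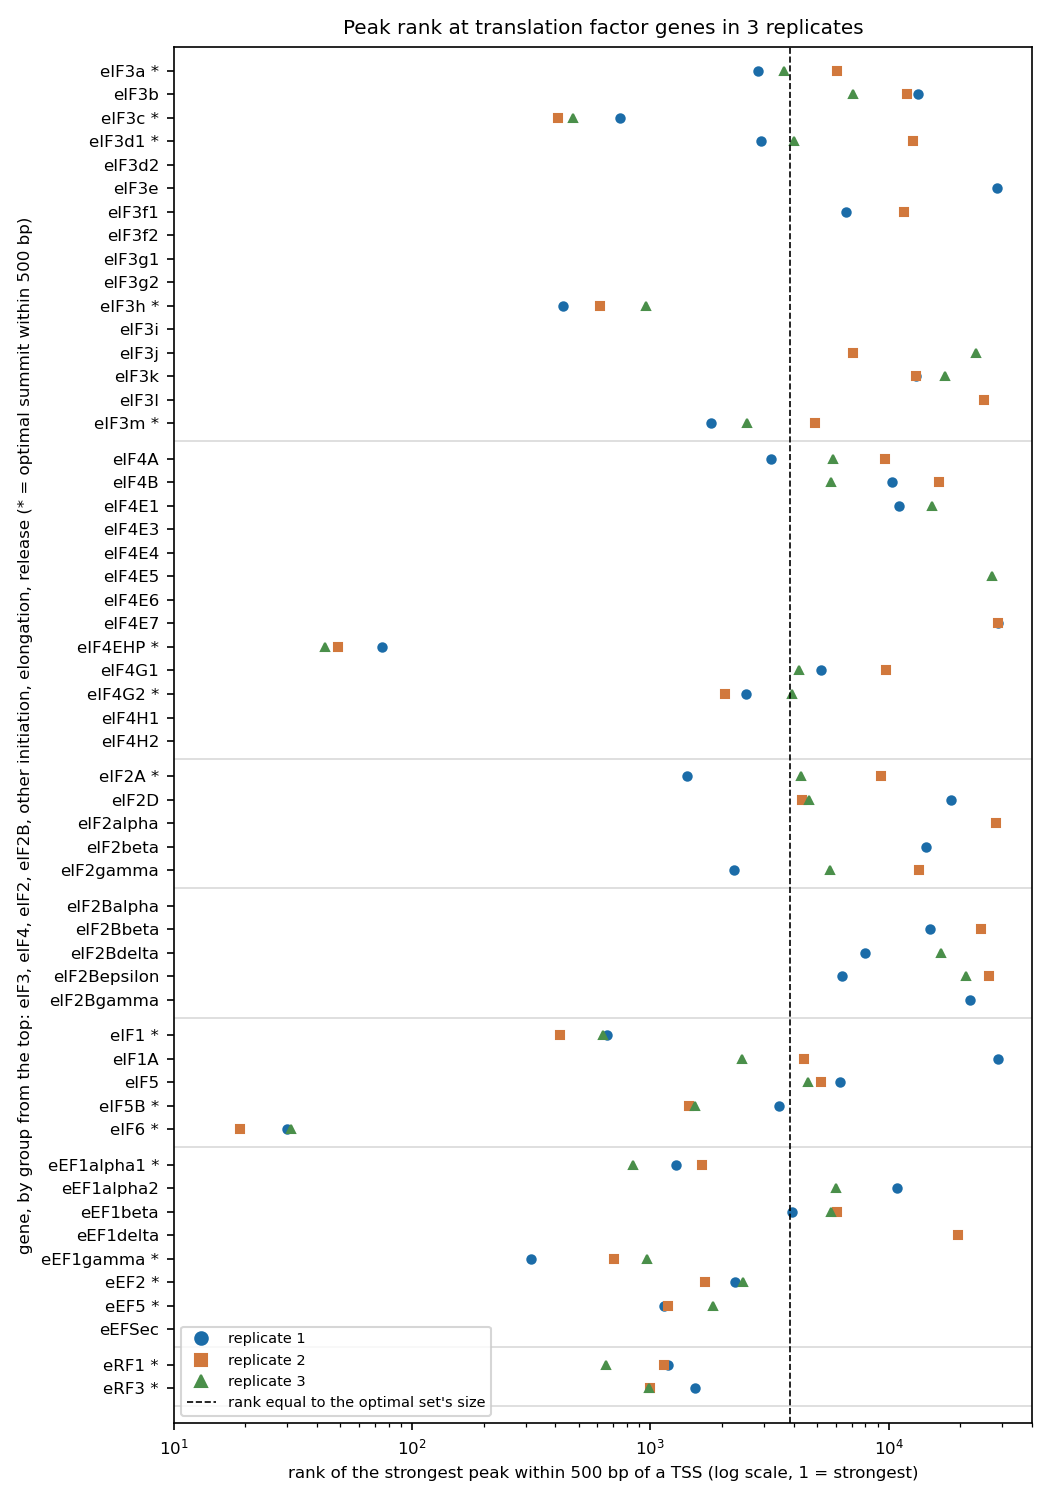
Rank of the strongest peak within 500 bp of a TSS of each of the 54 translation factor genes (rows, grouped from top to bottom as eIF3, eIF4, eIF2 with eIF2A and eIF2D, eIF2B, other initiation, elongation and release) in each replicate list (points). The x axis is a log scale with 1 as the strongest peak, the dashed line is rank 3844, an asterisk marks a gene bound in the optimal set, and a row without a point had no peak. The points of eIF6 and eIF4EHP lie left of rank 100, while 12 rows are empty.

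Of the 16 eIF3 genes, 5 were bound: eIF3a, eIF3c, eIF3d1, eIF3h and eIF3m (31.2%, beside 19.2% of all protein-coding genes). The top peaks gave 5 in replicate 1 (31.2%), 2 in replicate 2 (12.5%) and 4 in replicate 3 (25%), beside 18.6%, 19.2% and 18.8% of all genes, so that replicate 2 was below its background. The peak at eIF3c (2R, 17665561 to 17665777) was the strongest, with signals of 77.8, 85.3 and 94.2 and ranks of 747, 411 and 474 in replicates 1, 2 and 3, and a summit 5 bp upstream of a TSS. At eIF3h the signals were 99.8, 70.8 and 66.0 and the ranks 429, 614 and 961. This summit (2L, 5052358 to 5052573) lay in an intron of eIF3h, 262 bp downstream of its nearest TSS, and a second optimal summit with a signal of 97.3 lay 18 bp downstream of a TSS. These 2 eIF3 genes ranked within the top 1000 in each replicate.

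The other 3 bound eIF3 genes were weaker and less alike in the replicates. At eIF3m the ranks were 1798, 4933 and 2548, at eIF3a 2826, 6078 and 3641, and at eIF3d1 2905, 12704 and 4022 in replicates 1, 2 and 3. Each of the 3 peaks ranked highest in replicate 1 and fell outside the top 3844 in replicate 2. The summit at eIF3a lay 135 bp upstream of its TSS, in the 5' UTR of the oppositely directed gene CG1074, whose TSS was nearer at 65 bp. The count of bound eIF3 genes was 2 in the sets built without replicate 1 and without replicate 3, where eIF3c and eIF3h were kept.

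In human eIF3, subunits a, c, e, f, h, k, l and m carry PCI or MPN domains and form the core of the complex, and subunit d can bind the mRNA cap. Of the 8 genes for PCI or MPN subunits (with eIF3f1 for f) 4 were bound in the optimal set, and the replicates gave 4, 2 and 4, beside the 18.6% to 19.2% of all genes. Among the other PCI and MPN subunit genes, eIF3f1 had peaks in replicates 1 and 2 (ranks 6602 and 11665), eIF3k in all 3 (13097, 13035 and 17176), eIF3e in replicate 1 (28468) and eIF3l in replicate 2 (25179). The RNA-binding subunit gene eIF3b had ranks of 13304, 11975 and 7060, and the gene of the loosely attached subunit, eIF3j, had ranks of 7125 and 23217 in replicates 2 and 3. No list had a peak at eIF3g1 or eIF3i. The duplicate genes eIF3d2, eIF3f2 and eIF3g2 also had no peak in any list, so that of the 3 duplicated subunits only d had a bound copy, eIF3d1.

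Of the 5 genes eIF2alpha, eIF2beta, eIF2gamma, eIF2A and eIF2D, 1 was bound (20%, near the 19.2% of all protein-coding genes). Of the 3 subunits of eIF2, eIF2gamma came closest, with signals of 43.6, 11.8 and 19.7 and ranks of 2249, 13471 and 5703 in replicates 1, 2 and 3. Its peak ranked 3877 in the list called on the pooled replicates, just outside the 3844 peaks of the optimal set, with a signal of 78.2 where the weakest optimal peak had 78.9. The subunit genes eIF2alpha and eIF2beta had a peak in 1 replicate each, at ranks 28332 and 14335. The gene eIF2A, named for an initiator tRNA-binding protein distinct from eIF2, was bound at rank 2636 of the optimal set, but it ranked 1431, 9266 and 4311 in the replicates. Its summit lay 63 bp upstream of 1 of its TSSs and in the 5' UTR of transcripts that begin further upstream. The reinitiation factor gene eIF2D had ranks of 18342, 4345 and 4650 and was not bound.

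None of the 5 eIF2B genes had a peak in the optimal set within 500 bp, a count that differs by about 1 gene from the 19.2% of all protein-coding genes. The genes eIF2Bepsilon (ranks 6370, 26279 and 21203 in replicates 1, 2 and 3), eIF2Bdelta (7951 and 16654 in replicates 1 and 3) and eIF2Bbeta (14912 and 24350 in replicates 1 and 2) had weak peaks in 2 or 3 lists. Only replicate 1 had a peak at eIF2Bgamma (rank 21988), and no list had one at eIF2Balpha. With a window of 1000 bp eIF2Bbeta gained a summit 674 bp upstream of its TSS. That summit (X, 2703686 to 2704093) is the second strongest of the optimal set, with a signal of 1623, and lies 45 bp from the TSS of Ugalt.

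The remaining initiation factor genes, eIF1, eIF1A, eIF5, eIF5B and eIF6, do not form 1 complex. Of these 5, eIF1, eIF5B and eIF6 were bound (60.0%, beside 19.2% of all protein-coding genes). At eIF1 the signals were 83.3, 84.8 and 81.0 and the ranks 660, 420 and 631 in replicates 1, 2 and 3. Its strongest summit (3L, 3222923 to 3223142) lay 288 bp upstream of eIF1 and 93 bp from the TSS of RpL28, a gene of the large ribosomal subunit read in the opposite direction. A second optimal summit, with a signal of 122, lay 86 bp upstream of eIF1. At eIF5B the signals were 34.2, 44.7 and 50 and the ranks 3467, 1451 and 1547, and a further summit with a signal of 174 lay in an intron 27751 bp downstream of its start. The gene eIF1A was among the top peaks of replicate 3 alone (rank 2418, against 28804 and 4409 in replicates 1 and 2), and eIF5 had ranks of 6283, 5197 and 4578. The 11 bound initiation factor genes of 44 made 25%, beside 19.2% of all protein-coding genes. In the top peaks of the replicates the count was 13 (29.5%, beside 18.6%), 7 (15.9%, beside 19.2%) and 9 (20.5%, beside 18.8%). Replicate 1 thus placed initiation factors above all genes, replicate 2 below, and replicate 3 near them. Without replicate 1 the count was 6, and without replicate 3 it was 7.

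**Figure D2:**
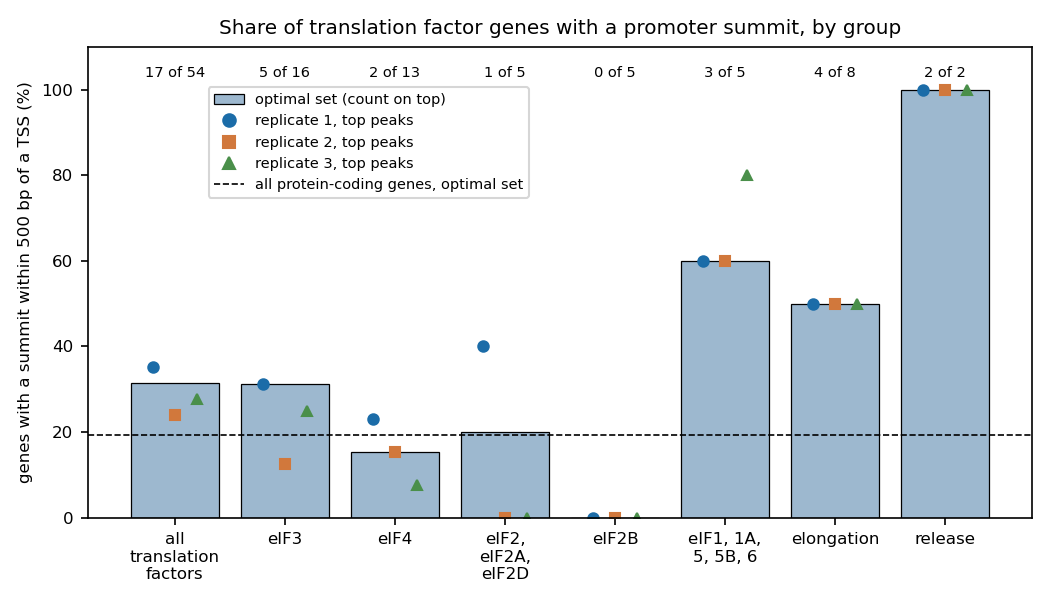
Percent of the genes of each translation factor group with a summit within 500 bp of a TSS, in the optimal set (bars, with the count above) and in the top 3844 peaks of each replicate (points). The dashed line is the 19.2% of all protein-coding genes in the optimal set; all points of the elongation group are at 50%, both release factor genes were bound in each list, and no eIF2B gene was bound in any.

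Elongation factor genes had 4 of 8 bound (50%, beside 19.2% of all protein-coding genes), and 4 in the top peaks of each replicate. The gene eEF1gamma, a subunit of the exchange factor that recharges eEF1alpha, had the strongest of these peaks (3R, 29220007 to 29220234), with signals of 113, 66.0 and 65.9 and ranks of 315, 707 and 966 in replicates 1, 2 and 3. The gene eEF1alpha1, which encodes the main carrier of aminoacyl-tRNA, had signals of 60.1, 41.6 and 70.2 and ranks of 1288, 1643 and 846. Its strongest summit lay in an intron of the gene, 81 bp upstream of a TSS, and a second optimal summit with a signal of 91.4 lay 95 bp upstream of another TSS. At eEF5, the gene of a factor that helps the ribosome through stretches such as proline runs, the ranks were 1140, 1189 and 1830. At eEF2 they were 2264, 1690 and 2455, and the summit lay 4 bp upstream of a TSS.

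The unbound elongation factor genes included a paralogue and the partners of bound ones. The paralogue eEF1alpha2 had ranks of 10898 and 5999 in replicates 1 and 3 and no peak in replicate 2. Of the other subunits of the exchange factor, eEF1beta had ranks of 3934, 6092 and 5742 and a pooled rank of 4044, outside but near the limit of 3844, and eEF1delta had a peak only in replicate 2 (rank 19550). The gene eEFSec, for the selenocysteine-specific factor, had no peak in any list.

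Both release factor genes were bound, in the optimal set and in the top peaks of each replicate, beside 18.6% to 19.2% of all protein-coding genes in these sets. The gene eRF1, whose product reads the stop codon, had signals of 62.4, 51.1 and 79.4 and ranks of 1190, 1144 and 653 in replicates 1, 2 and 3, with a summit 98 bp upstream of a TSS. The gene eRF3, for the GTPase that acts with eRF1, had signals of 54.2, 55.5 and 65.2 and ranks of 1534, 993 and 988. Its summit lay 111 bp upstream of a TSS and in an intron of SC35, a splicing factor gene read in the opposite direction. Elongation and release factors together had 6 of 10 bound (60.0%, beside 19.2% of all protein-coding genes) in the optimal set, and 6 in the top peaks of each replicate and in the sets built without each replicate in turn. With 10 genes, 1 gene is 10 percentage points, and the difference from initiation factors was not tested.

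The bound genes that were not in the top 3844 peaks of every replicate were the 5 with the weakest optimal peaks. Of the 17 bound genes, 12 had a peak among the top 3844 of all replicates, 3 (eIF3a, eIF3m and eIF4G2) in 2 of them, and 2 (eIF2A and eIF3d1) in replicate 1 alone. Of the 37 unbound genes, 3 were in the top 3844 of a single replicate: eIF2gamma and eIF4A in replicate 1 and eIF1A in replicate 3. These counts were not made over all bound and all unbound genes. They do not show whether translation factor genes were more or less alike between replicates than other genes. Over the whole replicate lists, which include background, 28 of the 54 genes had a peak within 500 bp in all 3, beside 33.6% of all protein-coding genes, and 12 of the 54 had none in any, beside 32.3%. The strongest optimal summit at each of the 17 bound genes had a summit of every replicate's whole list within 200 bp, which was not counted for all bound genes. The farthest of the 3 lay 17 bp away at eIF3d1, 107 bp at eIF3m and 36.0 bp in the median gene.

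Among bound genes, the median translation factor gene ranked above the median of all bound genes in each replicate. Each bound gene's optimal peak was matched within 200 bp to the top 3844 peaks of a replicate, and its percentile among them was read, with 0 for no match. The median was 66.5, 69.1 and 74.3 in replicates 1, 2 and 3 for the 17 translation factor genes, a mean of 70 ± 3.98 (SD, n = 3). For all 2674 bound genes it was 55.7, 60.8 and 59.3, a mean of 58.6 ± 2.58 (SD, n = 3). The lowest replicate median of the translation factor genes was thus above the highest of all bound genes, and this difference was not tested. The SD is over replicates and does not measure the spread between genes. In replicate 3 the quartiles were 33.7 and 83.0, beside 28.9 and 82.2 for all bound genes. All 17 genes were matched in replicate 1 (100%, beside 84.7% of all bound genes). In replicates 2 and 3 the matched were 13 (76.5%, beside 88.5%) and 14 (82.4%, beside 88.2%). In the optimal set the median signal was 163 for the 17 genes and 143 for all bound genes, with ranges of 80.6 to 837 and 78.9 to 1897. The weakest member inside the set was eIF3d1 (rank 3732).

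Summits lay close to the TSS and mostly upstream of it. The strongest summit was upstream of the nearest TSS of the gene in 16 of 17 bound translation factor genes (94.1%), beside 90.7% of all bound genes, and eIF3h was the exception. The median position was 81 bp upstream, beside 132 bp for all bound genes. Within 100 bp of the TSS were 11 of the 17 (64.7%), beside 32.8% of all bound genes. The distance is to the nearest TSS of the gene, so genes with several TSSs can have shorter ones. Of the 17, 12 had 2 or more TSSs, as did 1130 of the 2674 bound genes in all. The part of this in the distances was not tested. The 8 bound genes without an oppositely directed TSS nearby all had their summit 4 to 94 bp upstream, while the 9 with such a neighbour ranged from 288 bp upstream to 262 bp downstream. Positions at all bound genes were not split in this way.

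**Figure D3:**
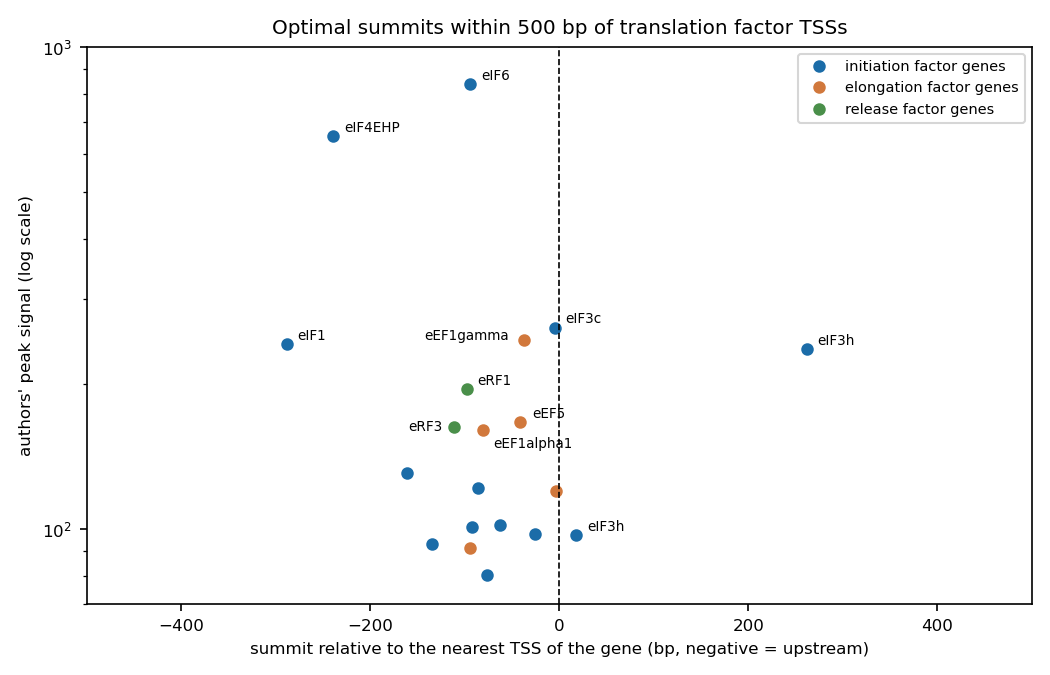
Position of the 20 optimal summits within 500 bp of translation factor TSSs relative to the nearest TSS of the gene (x axis, bp, negative is upstream) and the authors' peak signal (y axis, log scale), by role. The stronger summits and those downstream of the TSS carry the gene's name; 2 summits, both at eIF3h, lie downstream.

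The arrangement of the promoter accompanied binding in part. An oppositely directed TSS of another gene lay within 500 bp for 22 of the 54 genes, and 9 of these were bound (40.9%), beside 40.2% of all genes with such a neighbour. Of the 32 other translation factor genes, 8 were bound (25%), beside 11.1% of all genes without one. The replicates gave 10, 7 and 10 of the 22 (45.5%, 31.8% and 45.5%), and 9, 6 and 5 of the 32 (28.1%, 18.8% and 15.6%). All genes with and without such a neighbour were counted in the optimal set only. The replicate shares therefore have no background of their own. The share among genes with such a neighbour was therefore near the background in the optimal set. Of the 8 bound genes without one, eIF2A, eIF3d1 and eIF4G2 were outside the top 3844 peaks of 1 or 2 replicates. Another gene had a TSS within 500 bp of the same summit at 8 bound genes: RpL28 at eIF1, CG1074 at eIF3a, senju at eIF3h, CG8323 at eIF3m, CG18428 at eIF4EHP, CG33111 at eIF4G2, Rbbp5 at eRF1 and SC35 at eRF3. For these genes the peak could be counted for the neighbour too.

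Genes with several TSSs were bound more often than those with 1 start. Of the 22 translation factor genes with 2 or more TSSs 12 were bound (54.5%), beside 30.5% of all such genes, and of the 32 with 1 TSS 5 were bound (15.6%), beside 15.1%. More TSSs also offer more windows to a summit, and the part of this in the counts was not tested. No translation factor gene on the X chromosome was bound in the optimal set, beside 16.4% of all genes on X, or in the top peaks of each replicate. These are the 7 genes eIF2alpha, eIF2Bbeta, eIF2Bepsilon, eIF3g1, eIF4E7, eIF4H1 and eIF5. The difference was not tested, 7 genes are few beside such a share, and the replicates count the same genes again. On 2L 3 of 6 were bound (beside 19.4% of all genes on that arm), on 2R 5 of 13 (beside 17.8%), on 3L 4 of 12 (beside 20.4%) and on 3R 5 of 15 (beside 21.0%).

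The summits at translation factor genes were richer in G and C than most promoter summits. In the 101 bases centred on the summit the median GC content was 43.1% over the 20 optimal summits at these genes and 33.7% over all 2008 promoter summits, and 17 of the 20 lay above 33.7%. The highest were eEF5 (53.5%), eIF5B (52.5%) and eEF1alpha1 (50.5%), and the lowest eRF3 (13.9%), eIF4EHP (16.8%) and the summit of eIF1 that lay 86 bp upstream (26.7%). Among summits with a signal above 134, the median of all promoter summits, GC was 39.6% at translation factor genes (10 summits) and 31.7% in all, and among weaker summits 44.6% (10 summits) and 35.6%. The median GC of the region from 250 bp upstream to 50 bp downstream of the TSSs was 37.2% for the 17 bound translation factor genes and 37.5% for all 2674 bound genes, and it was 36.2% for the 37 other translation factor genes and 38.5% for all protein-coding genes. These values describe the windows, and no test was made.

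**Figure D4:**
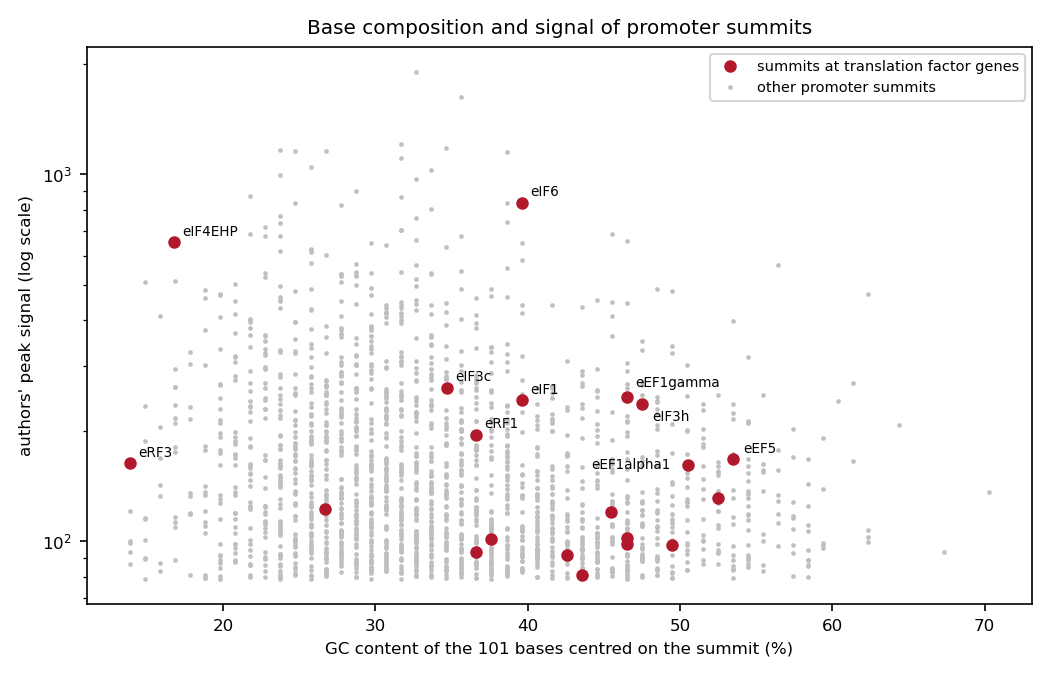
GC content of the 101 bases centred on each promoter summit (x axis, percent) against the authors' peak signal (y axis, log scale), for the 20 summits at translation factor genes (large points, the stronger ones named) and the other promoter summits (small points). Of the large points 17 lie above the 33.7% median of all promoter summits, and eRF3 and eIF4EHP lie at the low end.

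Short sequence motifs were searched on both strands. The DRE lay within 50 bp of the summit at eIF1, eIF2A and eEF1gamma, 3 of 20 summits (15.0%), beside 3.39% of all promoter summits. In the region from 250 bp upstream to 50 bp downstream of a TSS it was found for 6 of 17 bound genes (35.3%), 10 of 37 unbound ones (27.0%), 16.5% of all bound genes and 10.2% of all protein-coding genes. The core of motif 1 (GGTCACAC, the site of M1BP) was at the summits of eIF2A and eEF1alpha1 (10%, beside 1.69% of all promoter summits) and in the promoters of 3 bound (17.6%) and 6 unbound genes (16.2%), beside 13.2% of all bound genes and 8.71% of all genes. Both motifs were thus present at bound and at unbound translation factor genes. The E-box was at the eEF2 summit alone (5%, beside 1.29%) and in the promoters of 2 bound and 3 unbound genes (11.8% and 8.11%, beside 7.37% of all bound genes and 5.34% of all genes).

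The other 4 fixed motifs were at summits of translation factor genes in shares nearer to those of all promoter summits. The TATA box lay near the summits of eIF3a, eIF4EHP and eIF6 (15.0%, beside 21.3% of all promoter summits), the initiator TCAGT at 3 summits (15.0%, beside 17.4%), GAGAG at 2 (10%, beside 8.17%) and CTTTTC, the core of the TCT initiator, at 2 (10%, beside 8.57%). In promoters TATAAA was found for 70.6% of bound and 37.8% of unbound translation factor genes, beside 55.9% of all bound genes and 51.3% of all genes. The initiator was found for 58.8% and 37.8%, beside 56.7% and 58.6%. For CTTTTC the order was the reverse, with 23.5% of bound and 37.8% of unbound translation factor genes, beside 36.1% and 32.2%. For GAGAG the shares were 29.4% and 29.7%, beside 39.8% and 36.4%. The 6 bases ATCGAT, the centre of the DRE, were counted after the sequences were seen: 5 of 20 summits held them (25%, beside 8.96% of all promoter summits), as did 64.7% of bound promoters, 45.9% of unbound ones, 35.5% of those of all bound genes and 26.4% of all. A gene with several TSSs was counted when any of its windows held the motif, so genes with more starts had more sequence searched. A DRE includes ATCGAT. A match to these letters is not evidence that the named factor binds there.

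Genes that regulate translation without an eIF, eEF or eRF symbol were read from a list of 37, of which 36 were found in the annotation by symbol or synonym and 13 were bound (36.1%, beside 19.2% of all genes). The list of ribosome recycling, reinitiation and rescue factors also held Rack1, a protein of the small subunit, and had 4 of 6 bound. These were Rack1 (signal 175, ranks 1092, 1400 and 913 in replicates 1, 2 and 3), pelo (113), pix, the ATPase that splits ribosomes (101), and HBS1 (84.2). DENR and MCTS1, which act in reinitiation, were not bound. Regulators at the cap and the poly(A) tail had 5 of 11: larp, an RNA-binding protein gene (signal 803, ranks 25, 33 and 26), pAbp, the poly(A)-binding protein gene (111), Gyf (95.2), mxt, the eIF4E-binding Mextli (82.9), and NAT1, an eIF4G relative (79.6). The genes of the eIF4E-binding repressors Thor, cup and 4E-T were not bound. TOR and stress signalling had 3 of 10: mTor (197, ranks 2701, 991 and 372), Rheb, its activator (139), and Gcn2, a kinase of eIF2 (91.0). Factors of mitochondrial translation had 1 of 9, mIF2 (90.7). The shares of the 4 lists in this order were 66.7%, 45.5%, 30% and 11.1%, beside 19.2% of all protein-coding genes. With 6 to 11 genes a list, 1 gene moves a share by 9 percentage points or more. Of the bound related genes, Rack1, pAbp, larp, mTor and Rheb ranked within the top 3844 peaks of every replicate. The others (pelo, pix, HBS1, Gyf, mxt, NAT1, Gcn2 and mIF2) fell outside it in at least 1 replicate, as NAT1 did with ranks of 2903, 4714 and 7713. The pAbp summit lay 470 bp downstream of a TSS, near the edge of the 500 bp window.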

How the data were processed

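The values are narrowPeak lists on dm6 that the authors deposited: 3 replicate lists of 30000, 30000 and 27870 peaks, 1 list called on the pooled replicates and the optimal list of 3844 peaks. The listings that accompany each library give the list of a replicate as derived from its alignment and 1 further file, and the optimal list as derived from the replicate and pooled lists. The peak strength is the signal deposited by the authors for each peak, and all 3844 optimal peaks carry the signal of the pooled list. Neither the aligner nor the peak caller is given in the sources used here. Library depth is unknown, and no interval that needs read counts was computed. The dm3 lists, signal tracks and control library were not used here.

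Summits (start plus offset) were compared with the TSSs of protein-coding transcripts in Ensembl release 115, and sequence was read from the RefSeq genome of the same assembly. All 134 annotated coding sequences of the translation factor genes began with ATG at these coordinates, and every peak on the 6 arms ended within its arm. Coordinates are 1-based. For a gene with several peaks the strongest was used. "Without replicate 1" means the top 3844 peaks of replicate 2 with a summit within 200 bp among the top 3844 of replicate 3, and likewise for the others, so these sets also replace the optimal set. The counting was tested on simulated data with planted summits. The members and lists were chosen with earlier results of these data known. All bound members are named, every other member is accounted for by role, and related genes come from a list. The work used Python 3.11.15, numpy 2.4.6, pandas 2.3.3 and matplotlib 3.10.9.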

Additional observations from a re-analysis of the deposited data

How the results depend on the processing

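The count of 17 bound translation factor genes was 17 with a window of 250 bp and 18 with 1000 bp. It was 16 with peaks that cover the TSS (eRF1 was lost). With each summit counted for the nearest TSS alone it was 15 (eIF3a and eIF4EHP were lost). The top 3844 peaks of the pooled list gave 17 too. That set had the same weakest signal as the optimal set, 78.9, and the same ranks at the bound members, so it was not a separate check. Among the stronger 50% of the optimal peaks it was 11, with 6 initiation, 2 eIF3 and 1 eIF4 genes. Among optimal peaks matched in the top of all replicates it was 12, with 6 initiation, 2 eIF3 and 1 eIF4 genes. With the nearest TSS alone, 1 eIF4 gene was left. Leaving out a replicate in turn gave 12 to 14 of all members, 6 to 8 initiation, 2 to 4 eIF3 and 1 to 2 eIF4 genes. Elongation and release factors stayed at 5 or 6 of 10 under each of these alternatives. All protein-coding genes were not counted under these alternatives. The counts therefore do not show whether the difference from all genes persists in these sets. The median percentile of 70 was 67.7 and 70 with matching within 100 and 500 bp, 67.8 to 71.7 without 1 replicate, and 96.1 among all peaks of the lists, a scale that includes the background peaks. Counting distinct summits could change no count, since each bound member had its own strongest summit. It does not bear on the 8 bound genes whose summit was shared with a gene outside the group. The genes lost in the smaller sets were among eEF2, eIF2A, eIF3a, eIF3d1, eIF3m and eIF4G2. Replicate depth and read mappability at duplicated genes were not measured. No paired analysis was possible because the samples form 1 group.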
